A study of Mus musculus with 2 samples.

Results

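The 5 genes described here are Tlx1, Kazald1, Wt1, Msln and Prrx1, and they were taken by symbol from the 250 rows of the authors' deposited table, which compares the pancreas of control and Gata4/Gata6 mutant mouse embryos at e12.5. The working name of the group is spleen primordium and mesothelium genes. Each genotype was represented by 1 RNA sequencing library, made from a pool of 6 control or of 12 mutant pancreatic buds, so no value below has an error or a replicate check. The mutant genotype was Pdxcre;Gata4fl/fl;Gata6fl/fl, and the series title adds a Tom allele to it. It combines floxed alleles of both GATA transcription factors with a Cre recombinase under the Pdx1 promoter. That promoter drives expression in pancreatic epithelial cells, whereas spleen mesenchyme and mesothelium lie outside its lineage. The labels call the other genotype control and name no allele for it. Genotype, pool size and library preparation cannot be told apart in this design. The 5 genes were chosen on the difference between these libraries, so their values are a description and were not tested.

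The spleen arises in mesenchyme on the left side of the dorsal pancreas, and at the bud stage both organs share that mesenchyme. Tlx1 (also called Hox11) encodes a homeodomain transcription factor that marks the spleen primordium, and mice without it have no spleen. Wt1 encodes a zinc finger transcription factor of spleen mesenchyme and of the mesothelium, the epithelial layer that covers the organs and from which mesenchymal cells delaminate. The labels do not say whether the spleen primordium was kept with the dissected pancreas. They describe no cell sorting, and fewer cells of a type cannot be told apart from less RNA per cell in any of these values.

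Tlx1, Kazald1, Wt1 and Prrx1, 4 of the 5 genes, had lower values in the mutant library, and Msln stayed under 1 FPKM in both libraries. FPKM is the number of fragments scaled to transcript length and to the mapped fragments of the library. A gene was counted as lower or higher when log2((mutant FPKM + 1)/(control FPKM + 1)), called the ratio below, was at least 1 in size, which is 2-fold, and the gene reached 1 FPKM in at least 1 library. By this rule 45.2% of all 250 rows were lower and 48.4% were higher, which is 113 and 121 rows. After centring on the median of the rows that pass the minimum, which subtracts 1.11 from every ratio, the split was 114 lower and 38 higher. The table holds genes that the authors marked significant, 1.67% of the 14984 tests that their p-values and q-values imply. The genes outside it were not analysed here. In the authors' deposited table a further mark, with no stated meaning, is true for Wt1 and false for the other 4 genes. It is true in the 153 rows whose smaller FPKM is at least 1.01 and false in the 97 rows whose smaller FPKM is 0.965 or less. The median ratio was −2.86 over the 5 genes and 0.87 over all rows.

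Tlx1 lies on mm9 chromosome 19 at 45225205 to 45231433, on the plus strand, and Kazald1 lies upstream of it at 45150629 to 45153779, on the same strand. Kazald1 encodes a secreted protein with a Kazal-type protease inhibitor domain, related to the insulin-like growth factor binding proteins. The gap between these 2 loci is 71425 bases, and GENCODE vM1, which annotates the same build, places no other gene in it. The annotated Tlx1 gene itself reaches 1479 bases into this gap. Because both genes were at similar FPKM in each library, the bases before their starts are shown, 5′ to 3′ on the plus strand, each 250 bases long, as RefSeq gives them for GRCm38.p6. Each has 1 exact match in mm9. The Tlx1 sequence ends directly before the start of the table's Tlx1 locus (mm9 chr19:45224955-45225204). RefSeq has an upstream start for Kazald1 (mm9 chr19:45149481-45149730) and a downstream one (mm9 chr19:45150327-45150576), which lie 898 and 52 bases before the start of the table's Kazald1 locus. Capitals mark matches to the motifs described after the sequences.
Tlx1: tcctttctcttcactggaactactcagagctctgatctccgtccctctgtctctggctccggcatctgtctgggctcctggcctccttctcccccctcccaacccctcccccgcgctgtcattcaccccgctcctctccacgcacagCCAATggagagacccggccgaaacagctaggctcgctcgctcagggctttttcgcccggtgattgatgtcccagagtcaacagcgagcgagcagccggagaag
Kazald1 upstream start: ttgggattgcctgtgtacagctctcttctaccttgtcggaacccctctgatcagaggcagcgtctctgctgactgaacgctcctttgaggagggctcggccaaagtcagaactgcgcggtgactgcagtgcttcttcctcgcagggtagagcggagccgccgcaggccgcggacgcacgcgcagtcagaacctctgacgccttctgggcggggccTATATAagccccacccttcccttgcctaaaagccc
Kazald1 downstream start: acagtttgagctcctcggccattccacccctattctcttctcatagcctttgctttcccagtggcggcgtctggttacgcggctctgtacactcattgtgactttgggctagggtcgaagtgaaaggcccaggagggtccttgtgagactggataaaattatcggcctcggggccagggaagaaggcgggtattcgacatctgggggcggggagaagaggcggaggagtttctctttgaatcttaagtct

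Several motifs were searched on both strands. GATA was searched as AGATAA, with AGATAG as a variant, and with another first letter as TGATAA, for which the variant was TGATAG. The promoter element named after TATA was searched by the letters TATAAA and in a variant form by TATATA. The CCAAT box was searched by its own letters. A WT1-type motif, which also resembles sites of the Egr factors, was searched as GCGTGGGAG and in another form as GCGGGGGCG. The Tlx1 sequence held CCAAT, from 103 to 99 bases before the start, as do 33.8% of the 32851 RefSeq sequences of the same length. The upstream Kazald1 sequence held TATATA, from 35 to 30 bases before the start, and 15.6% of all sequences hold a TATA match. The downstream Kazald1 sequence held no match. The sequence before the Prrx1 start held a GATA match, TGATAA, as do 26.5% of all sequences, while those of Tlx1 and Kazald1 held none. No WT1-type word was found before Tlx1, Kazald1 or Prrx1, and 2.96% of all sequences hold one. A match describes letters and not a site of binding. The GC content was 62.0% for Tlx1, 61.2% and 54.4% for Kazald1 and 47.6% for Prrx1, against a median of 52.4%. Of the 5 genes, 3 had an entry in the RefSeq table, and Wt1 and Msln had none.

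Tlx1 was at 23.4 FPKM in the control library and at 0.353 in the mutant library. The control value ranked 47 from the highest of the 250 rows and the mutant value 20 from the lowest. The mutant level was thus 1.51% of the control level, a 66.4-fold difference, and the ratio was −4.17. In the authors' deposited table the log2 fold change of Tlx1 was −6.05 and its q is listed as 0. The annotated Tlx1 gene starts 1479 bases before the table's locus, so the sequence printed above lies within that longer gene model. The body of the Tlx1 gene, and not that sequence, overlaps Gm20424, a transcript on the opposite strand. No source used here says that counting took strand into account, so reads of that pair cannot be told apart.

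Kazald1 was at 18.7 FPKM in the control library and at 0.338 in the mutant library, a 55.5-fold difference, and its ratio was −3.88. In the authors' deposited table its log2 fold change was −5.79 and its q was 2.42e-11. Tlx1 and Kazald1 ranked 3 and 4 from the lowest ratio among the 250 rows. Each was also the row most like the other, at a distance of 0.31 over the log2(FPKM + 1) values of both libraries. The next most like both of them was Pnliprp1, a pancreatic lipase relative, at 22.7 against 1.02 FPKM, followed by the elastase gene Cela1, at 13.9 against 1.05. These distances rest on 2 libraries and on no replicate. Within 1 Mb of Tlx1, 36 other protein-coding genes are annotated, and Kazald1 is the only row of the table among them. Lbx1, a homeobox gene on the far side of Tlx1 at 82.0 kb from its start, and Sfxn3, the nearest gene on the far side of Kazald1, are outside the table, so no values were analysed here for the genes that flank the pair.

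**Figure D1:**
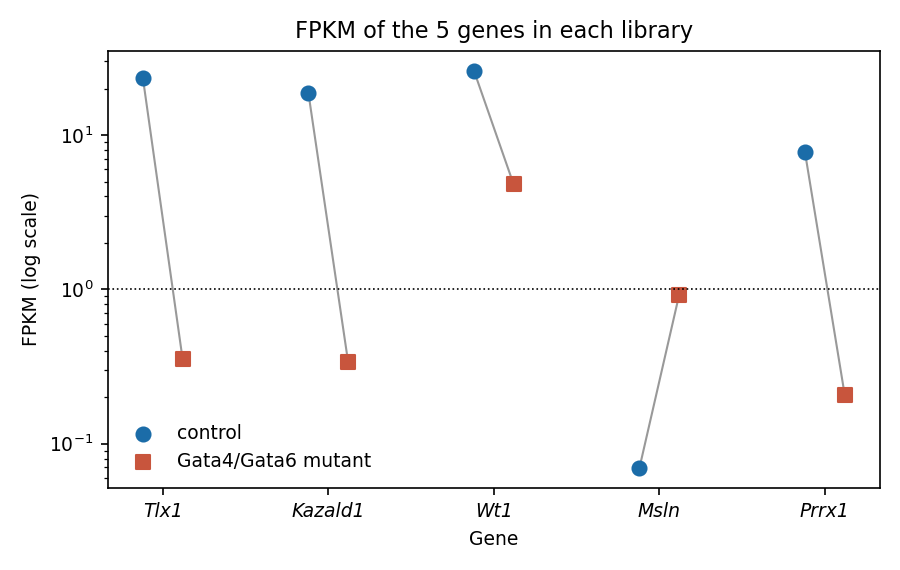
FPKM on a log axis for each of the 5 genes, with a blue circle for the control library, a red square for the mutant library and a dotted line at 1 FPKM. Tlx1, Kazald1 and Prrx1 cross from above the line to 0.353, 0.338 and 0.208 FPKM, Wt1 stays above it at 4.79, and Msln stays below it at 0.0695 and 0.920.

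Wt1 (mm9 chromosome 2, 104966686 to 105013771, plus strand, with 10 annotated transcript models) was at 26.2 FPKM in the control library, the highest control level of the 5 genes, and at 4.79 in the mutant. The mutant level was 18.3% of the control level, a 5.47-fold difference, with a ratio of −2.23. In the authors' deposited table the log2 fold change of Wt1 was −2.45 and its q was 2.59e-05. Wt1 was the only one of the 5 genes at 1 FPKM or more in both libraries. Of the summed FPKM of the 4 lower genes, 76.1 in the control and 5.69 in the mutant, Wt1 made up 84.2% in the mutant. The rows most like Wt1 were Cdo1, a cysteine dioxygenase gene, at 24.2 against 5.56 FPKM, the pericyte gene Rgs5 at 32.9 against 5.73 and the calcium-binding protein gene S100a6 at 23.4 against 3.45.

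The row next to Wt1 differed in the same direction. AI314831, which RefSeq lists as a synonym of Wt1os, a long non-coding RNA, lies on the minus strand and ends 18 bases before the Wt1 locus (mm9 chromosome 2, 104916695 to 104966667). It is named here after its values were seen, because the naming rule left out symbols of this kind. AI314831 had a level of 1.52 FPKM in control RNA and 0.194 in mutant RNA, 12.7% of the control level, with a ratio of −1.08. It is transcribed away from Wt1, and reads that cross the boundary between the loci could count for either if strand was not used. Of the 16 other protein-coding genes annotated within 1 Mb of Wt1, 0 were rows of the table.

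**Figure D2:**
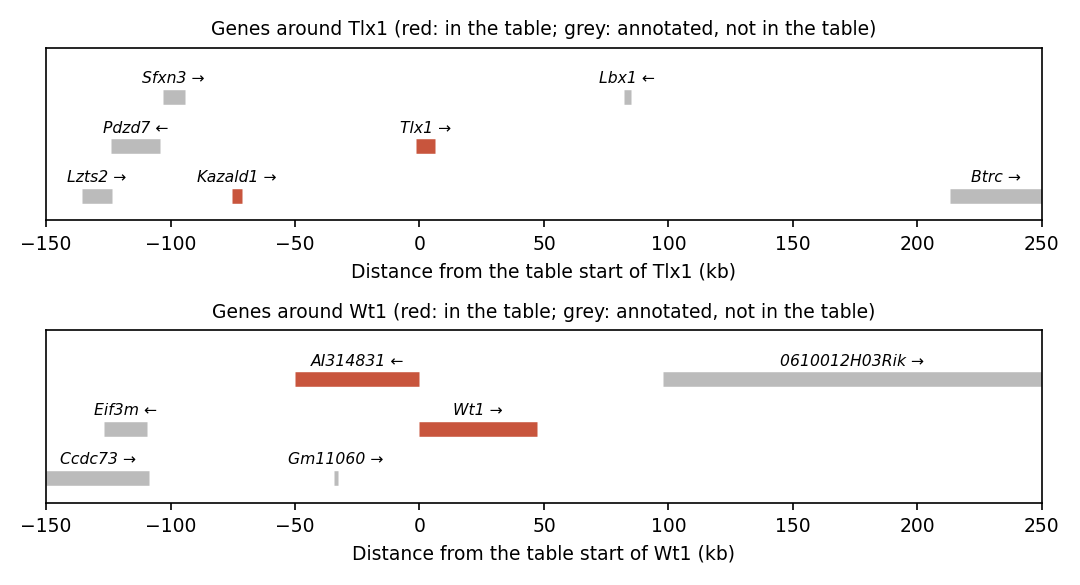
Annotated protein-coding genes, and any other rows of the table, around Tlx1 (top) and Wt1 (bottom) by distance in kb from the start of the table's locus. Arrows give strand, red marks rows of the table and grey marks genes outside it. Non-coding genes outside the table, such as Gm20424, are not drawn. The table's loci of Kazald1 and Tlx1 are 71.4 kb apart with no other annotated gene between them, and AI314831 ends 18 bases before Wt1.

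Prrx1 encodes a paired-related homeodomain factor of limb, craniofacial and other mesenchyme. It lies on mm9 chromosome 1 at 165175250 to 165243781, on the minus strand. Prrx1 had a control level of 7.77 FPKM and a mutant level of 0.208, the lowest mutant level of the 5 genes. The mutant level was 2.68% of the control level, a 37.4-fold difference, and the ratio was −2.86, which ranked 16 from the lowest. In the authors' deposited table the log2 fold change of Prrx1 was −5.22 and its q was 1.36e-07. The rows most like it were Neurog3, the transcription factor of endocrine progenitors, at 9.06 against 0.186 FPKM, and the genes Rem1 and Pdlim2, at 8.46 against 0.833 and 8.57 against 0.965. Within 1 Mb of Prrx1 the table holds 3 other rows, and all 3 were lower, as were 45.2% of all rows. The flavin-containing monooxygenase gene Fmo2, 346 kb away, was at 7.51 against 1.66 FPKM, and its relative Fmo4, 433 kb away, at 1.26 against 0.0783. The sodium pump subunit gene Atp1b1, 994 kb away, was at 60.2 against 22.2. The Prrx1 locus overlaps the annotated non-coding genes Gm20471, on the opposite strand, and Gm17698.

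Msln encodes mesothelin, a surface glycoprotein of mesothelial cells (mm9 chromosome 17, 25885558 to 25891272, minus strand). Its levels were 0.0695 FPKM in control and 0.920 in mutant RNA, under 1 FPKM in both, as were 12 of the 250 rows. The mutant value was 13.2-fold the control value and the ratio was 0.84, below the limit of the rule. In the authors' deposited table the log2 fold change of Msln was 3.73 and its q was 0.0208. The rows most like it were Irx4, Htr3b and Myh7, which were likewise under 1 FPKM in both libraries. The nearby window of 1 Mb held 77 other protein-coding genes and 0 other rows of the table. The ratio was 2.59 with a pseudocount of 0.1 and 0.22 with 5, so it depends on the pseudocount, and the minimum of 1 FPKM leaves the gene uncalled in each case.

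The deposited values carry no read counts, so the number of fragments behind each value is unknown. Per the labels more than 20000000 reads were mapped, but the exact depth of each library is unknown. A rough view of the low values came from multiplying FPKM by the exonic length in kb. The smallest such product in the control library was 0.0285, for Clca3, and in the mutant library 0.0776, for Ccnb3. If a smallest product stands for at least 1 fragment, the multiple of it is a rough lower limit on a gene's fragments. Msln in the control library was at 5.15 times the smallest product. In the mutant library the multiple was 6.00 for Kazald1, 9.22 for Tlx1, 17.4 for Prrx1 and 25.1 for Msln. These multiples are tentative, since no source used here gives the transcript lengths behind the deposited FPKM.

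**Figure D3:**
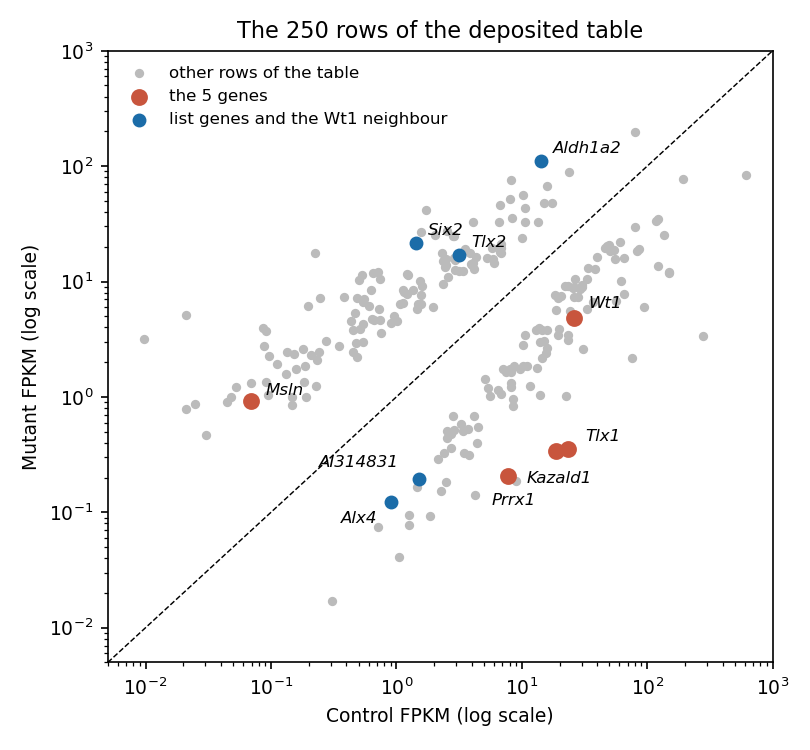
Mutant against control FPKM on log axes for all 250 rows (grey), with the 5 genes in red, 4 further list genes and the Wt1 neighbour AI314831 in blue, and a dashed line of equal values. Tlx1 and Kazald1 lie together far below the line at 23.4 and 18.7 FPKM in the control, and Msln lies above it at low values.

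The name of the group could be checked against markers only in part. In a list of 12 spleen primordium genes, Tlx1 and Wt1 were the 2 rows present and both were lower, with a median ratio of −3.20. Of all rows 45.2% were lower. Both genes belong to the 5 chosen on the difference between these libraries, so this list gives no independent check of the name. The other 10, among them Nkx2-5, Nkx3-2 and Tcf21, are outside the table and were not analysed here. In a list of 20 mesothelium genes, 3 were present and they did not share a direction. Wt1 was lower, Msln was under the minimum, and Aldh1a2, which makes retinoic acid in mesothelium and mesenchyme, stood at 14.1 FPKM in control and 110.9 in mutant RNA, with a ratio of 2.89. The other 17, including Upk3b, Lrrn4 and Krt19, were not analysed here. The values therefore do not show the mesothelial genes as a group that moves together.

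Tlx1 and Prrx1 were also read against other homeobox genes of mesenchyme. Of 36 annotated genes on that list 6 were in the table, of which 2 were lower, 2 were higher and 2 were under 1 FPKM in both libraries, with a median ratio of −0.13. Tlx1 and its paralogue Tlx2, a gene of enteric and autonomic neurons, differed in opposite directions. Tlx2 stood at 3.14 FPKM in control and 16.8 in mutant RNA, with a ratio of 2.11. Six2, a homeobox gene of the mesenchyme at the gastric outlet and of kidney progenitors, was at 1.42 against 21.6 FPKM, with a ratio of 3.22. Alx4, a paired-type homeobox gene of limb mesenchyme, was at 0.912 against 0.124 FPKM and did not reach the minimum. After centring, Six2 was higher by the rule and Tlx2 was not, while the higher rows of the whole table went from 121 to 38.

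**Figure D4:**
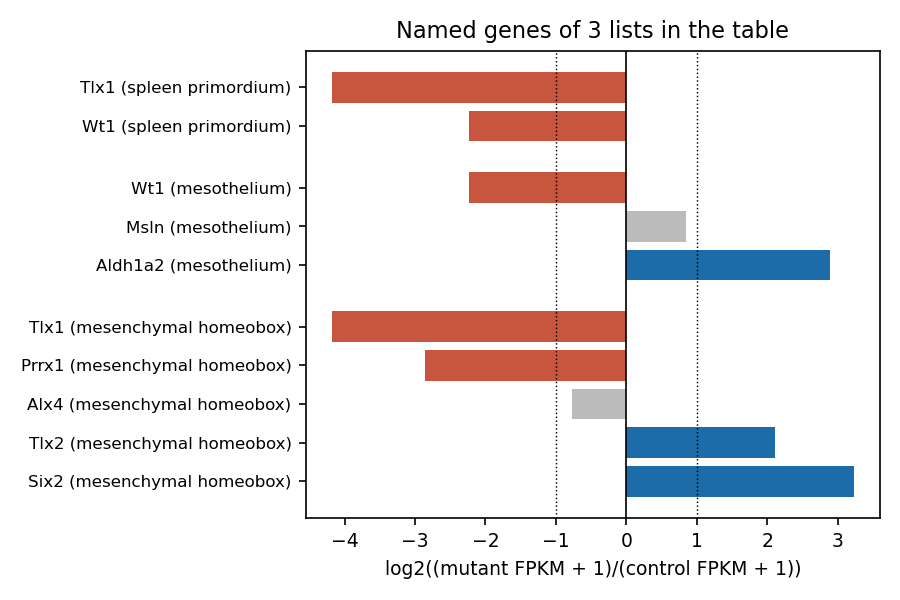
Ratio, log2((mutant FPKM + 1)/(control FPKM + 1)), of the named genes of the spleen primordium, mesothelium and mesenchymal homeobox lists in the table, with dotted lines at −1 and 1 and grey bars for genes that did not pass the rule. Tlx1, Wt1 and Prrx1 extend to the left (−4.17, −2.23 and −2.86), and Aldh1a2, Tlx2 and Six2 extend to the right (2.89, 2.11 and 3.22).

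Markers of other cell types also differed between the libraries, and their part in these results was not tested. Of 20 annotated genes on the pancreas mesenchyme list, 5 were in the table and all 5 were higher, with a summed level of 21.3 FPKM in control and 172 in mutant RNA. They include the forkhead genes Foxf2, at 1.73 against 42.0, and Foxf1a, at 8.17 against 76.6, and Fgf10, at 2.86 against 16.1. Tlx1 and Prrx1 differed in the direction opposite to that of these 5 genes, and 48.4% of all rows were higher. The other 15 genes of the list are outside the table, so the 5 do not stand for mesenchyme as a whole. On a urogenital list, since Wt1 is also active in kidney and gonad, 5 of 18 were present. Of these Wt1 and Lhx9, a LIM homeobox gene of the gonad and limb, were lower, Lhx9 at 4.25 against 0.142 FPKM, while Six2, Ret and Gdnf were higher.

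Immune genes were lower in 4 of 4 cases in the table, out of 10 annotated. Of all rows 45.2% were lower and 48.4% were higher. The summed level of the immune genes was 168 FPKM in control and 29.2 in mutant RNA. They were led by S100a8 at 65.1 against 7.74, S100a9 at 61.4 against 10.1 and Lyz2 at 28.1 against 7.35. Skeletal muscle genes were present in 6 of 16 cases, with 5 higher and 1 lower, and smooth muscle genes in 6 of 10 cases, with 5 higher and 1 lower. Actc1 and Myog led the first of these lists, at 0.224 against 17.8 and 0.0209 against 5.11 FPKM, and Myocd and Actg2 the second, at 0.739 against 10.6 and 8.10 against 52.4. The lower gene of both was Des, an intermediate filament gene. Of 10 pancreatic epithelium genes, Cpa1 and Neurog3 were present and lower, Cpa1 at 277 against 3.39 FPKM. None of 10 endothelial genes is a row of the table. Gata4 and Gata6 are not rows of it either, and the deletion could not be checked in these data.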

How the data were processed

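RNA was sequenced from 1 control and 1 mutant library. Per the labels, RNA from dissected whole pancreas, with integrity numbers above 8, went into Illumina TruSeq RNA libraries. The submitters' processing notes and design text name CASAVA 1.8.2, TopHat 2.0.4 on mm9 with 4 mismatches and up to 10 hits, Cufflinks and DESeq. Per the labels, more than 20000000 reads were mapped. The authors deposited an FPKM value per library and gene, scaled by length and mapped fragments. They also deposited a log2 fold change without a pseudocount, a test statistic, which is a score not used here, and p-values and q-values, which compare 2 libraries and hold no replicate variation. The table's columns are those of Cuffdiff, while per the labels the calls were made by DESeq.

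Ratios with a pseudocount of 1 understate changes of low genes. Loci were converted to 1-based starts and compared with GENCODE vM1. In simulated data with 200 of the 250 genes changed 8-fold, the call rule took 162 of them in the right direction and 0 of the 50 unchanged genes. The simulation added no noise, so the 0 was fixed in advance and the 162 follows from the pseudocount and the minimum. It checks the arithmetic of the rule and gives no rate of false calls. No significance test was run on the real data, since there is 1 library per genotype. Alternatives were other pseudocounts, minimums, a stricter limit and centring. The members and lists were chosen with earlier results of these data known. Named genes were the 5 genes, rows of their 3 lists, the 3 nearest rows of each, rows within 1 Mb, and up to 3 rows of each other marker list; a gene that the rule selects but that is not reported here enters counts alone, and some further list genes were named to complete a list. Python 3.11.15, pandas 2.3.3, numpy 2.4.6 and matplotlib 3.10.9 were used.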

Additional observations from a re-analysis of the deposited data

How the results depend on the processing

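The 4 lower genes Tlx1, Kazald1, Wt1 and Prrx1 kept their direction and stayed past the limit at pseudocounts of 0.1 and 5, without a minimum, with a minimum of 5 FPKM, with a limit of 4-fold and with centring. When both libraries had to reach 1 FPKM, 1 of the 4 passed, which was Wt1, and likewise 1 of the 2 spleen primordium genes and 0 of the 2 lower homeobox genes, because by construction that setting removes genes with a mutant value under 1 FPKM. Centring left 1 of the 2 higher homeobox genes, and 38 of 121 higher rows in the whole table. Over the settings run, the ratio ranged from −5.70 to −2.41 for Tlx1, from −5.43 to −2.15 for Kazald1, from −3.35 to −1.67 for Wt1 and from −4.68 to −1.29 for Prrx1. The ratio of Msln ran from 2.59 with a pseudocount of 0.1 to 0.22 with 5, and the minimum of 1 FPKM left it uncalled. Without a minimum, at 0.84, it was short of the limit. Centring took it to −0.27, as by construction it turns every ratio between 0 and 1.11, and the median subtracted comes from genes that the authors had called. The number of fragments behind each value is unknown, which limits the low mutant values most. No paired analysis was possible because each genotype has 1 library, and no library could be left out.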

Other observations

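Neighbouring rows of the table shared a direction. Among the called rows there were 17 pairs with loci at most 100 kb apart, involving 28 rows. In 10 pairs both rows were lower, in 7 both were higher and in 0 the directions were opposite. Kazald1 with Tlx1 and AI314831 with Wt1 are 2 of the lower pairs. Some of the others are clusters of related genes, such as S100a8 with S100a9 and Foxf1a with Foxl1. Some are not, such as Elavl3 with Cnn1. Of all rows 45.2% were lower and 48.4% were higher, so part of the pairs would share a direction in any case. Some rows, such as S100a8 and Foxf1a, enter more than 1 pair, so the pairs are not independent. The count comes from a table chosen for change and was not tested.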
